A study of Rattus norvegicus with 4 samples.

Results

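T and NK lymphocytes of the rat pituitary were chosen by their measured RNA, as the barcodes in which at least 2 of 5 lymphocyte genes were detected: Cd3d, Cd3e and Cd3g, the chains that carry the signal of the T-cell receptor, the adhesion receptor Cd2, and Nkg7, a protein of cytotoxic granules. A barcode also needed at least 1000 unique molecular identifiers (UMIs, counts of captured RNA molecules), at least 500 detected genes and a mitochondrial share of no more than 20%. Prl, Gh1 and Pomc each had to make up less than 10% of its UMIs, and C1qa, C1qb and C1qc together at most 1 UMI, which kept hormone cells and macrophages out. This gave 62 cells among the 20381 barcodes that passed the limits on UMIs, genes and mitochondrial RNA, or 0.304% (exact 95% binomial interval 0.233 to 0.390%).

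The study profiled single pituitary cells of female Sprague Dawley rats aged 75 days at random stages of the estrous cycle, with the 10x Chromium 3' kit. The glands of a first pool of 30 were parted into anterior lobe and posterior lobe, each sequenced as 1 library, and a second pool of 30 whole glands was dispersed with trypsin and EDTA, as the first pool was, and split over 2 lanes. There was no treatment and no second genotype, animals were pooled, and the lanes repeat 1 suspension, so the replicates are the dissected and the whole preparation (n = 2). P-values below therefore rest on these 2 preparations. They weigh a difference against the spread left once the common shift between preparations is removed. That spread was estimated over all cell classes of the fit together, leukocytes and others. It is not the spread of lymphocytes alone.

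T cells recognise antigen through a receptor that signals by way of the Cd3 chains, and their cytotoxic branch carries the coreceptor Cd8. NK cells lack that receptor and read target cells through receptors such as Ncr1 (NKp46) and the Klr lectins, many of which signal through the adaptors Tyrobp (DAP12), Fcer1g and Hcst (DAP10). Both kill with perforin and granzymes and release chemokines such as Ccl5 and Xcl1, while T cells that have not met antigen express Lef1, Tcf7 and the lymph node homing receptor Ccr7.

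Lymphocytes were found in all 4 libraries. There were 11 of 5666 kept barcodes in the anterior library (0.194%, interval 0.0970 to 0.347%) and 18 of 3936 in the posterior library (0.457%, 0.271 to 0.722%). In the whole glands there were 14 of 5714 on lane 1 (0.245%) and 19 of 5065 on lane 2 (0.375%). The anterior and posterior intervals overlapped, and with 1 library per lobe no test was made. Hormone cells fill most of the anterior library: of the barcodes in which all 3 hormones were under 10%, lymphocytes were 0.724% in the anterior library, 0.772% in the posterior library, 0.771% on lane 1 and 1.21% on lane 2. Of all 952 leukocytes, counted as lymphocytes, C1q-positive macrophages and C1q-negative myeloid cells, they were 6.51%, with 5.85% in the anterior library, 5.63% in the posterior library, 6.45% on lane 1 and 8.37% on lane 2.

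**Figure D1:**
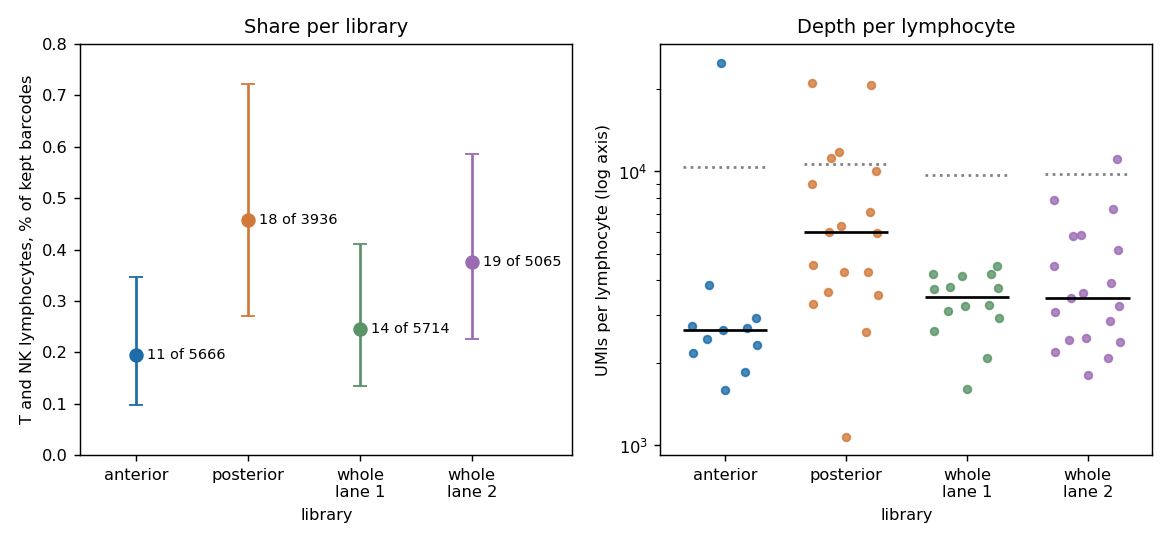
Left, lymphocytes as a percentage of kept barcodes in each library, with exact 95% binomial intervals and the cell counts. Right, UMIs per lymphocyte on a log axis, 1 point per cell, with the median of the lymphocytes (solid line) and of all kept barcodes of the library (dotted line); lymphocyte medians of 2630 to 6004 UMIs lie below the medians of 9741.5 to 10676 UMIs of all kept barcodes.

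Lymphocytes were shallow cells. Their median was 3611.5 UMIs (range 1077 to 24946) and 1384 genes, against 10114 UMIs and 2448 genes over all kept barcodes, and their mitochondrial share had a median of 6.87%, against 7.91%. No barcode sequence was shared between members, and 1 member shared its sequence with a kept barcode of another library. A Scrublet doublet score above 0.25 was given to 2 members. Of the 62 cells, 19 had exactly 2 of the 5 defining genes, 10 had 3, 15 had 4 and 18 had all 5. Just outside the rule, 62 further low-hormone, C1q-poor barcodes held exactly 1 of the genes. Ptprc, the pan-leukocyte phosphatase CD45, was detected in 17 of the 19 cells just inside the rule (89.5%) and in 24 of the 62 just outside (38.7%).

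Some members also held RNA of other cell types. At least 5 UMIs of another type's markers were found in 7 of the 62, of which 1 was in the anterior library, 3 in the posterior library, 0 on lane 1 and 3 on lane 2. The deepest, an anterior barcode of 24946 UMIs with a single Cd3 UMI, held 203 fibroblast, 86 endothelial and 73 macrophage marker UMIs, and a posterior barcode of 21090 UMIs held 172 endothelial and 1030 red cell or platelet marker UMIs. The deep anterior barcode holds 24946 of the 50162 lymphocyte UMIs of its library. It therefore lowers the anterior and dissected levels given below for genes that it lacks. Macrophage markers were detected for 7 of 13 measured genes, at 0 to 1495 CPM by library (counts scaled to 1000000 UMIs of the summed lymphocytes), while C1qa, C1qc, Csf1r, Cd68, Cd163 and Adgre1 had 0 UMIs. B-cell markers Cd79al, Cd79b, Ms4a1, Pax5 and Fcrla had 0 UMIs as well, and summed B and plasma cell markers ranged from 0 to 219 CPM by library. The totals of called genes below are also given without these 7 cells, a setting chosen after their markers were seen. Prl, the prolactin RNA of pituitary hormone cells, ranged from 2431 to 10828 CPM in lymphocytes by library and from 2805 to 6437 CPM in endothelial cells.

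The 3 Cd3 chains chose the cells and so carry no test. Over all lymphocytes Cd3g had 202 UMIs in 48 cells, Cd3e had 147 in 44 and Cd3d had 127 in 39. C1q-positive macrophages had 0 UMIs of Cd3g and of Cd3e, but their gate admits fewer than 2 of the 5 defining genes. That contrast is therefore partly fixed in advance. In the anterior library the deep barcode above gave 24946 of 50162 UMIs but 1 Cd3e UMI. Cd3e stood at 299 CPM there, 439 in the posterior library, 403 on lane 1 and 654 on lane 2. Their genes neighbour each other, and the 250 bases before each start, read 5′ to 3′ on the gene's own strand from RefSeq (GRCr8), are shown because these genes define the cells. The window of Cd3e is chr8:54211771-54212020 on the minus strand, that of Cd3d is chr8:54185269-54185518 on the plus strand and that of Cd3g is chr8:54183919-54184168 on the minus strand. Capitals mark the T-box core AGGTGT or its reverse complement, the only match among this motif, the RUNX core TGTGGT and the ETS core CGGAAG on both strands. The T-box core was in 11.6% of 33469 windows of the same length, the RUNX core in 14.5% and the ETS core in 13.9%. A match of this kind is a string in the sequence and no measure of binding.
Cd3e: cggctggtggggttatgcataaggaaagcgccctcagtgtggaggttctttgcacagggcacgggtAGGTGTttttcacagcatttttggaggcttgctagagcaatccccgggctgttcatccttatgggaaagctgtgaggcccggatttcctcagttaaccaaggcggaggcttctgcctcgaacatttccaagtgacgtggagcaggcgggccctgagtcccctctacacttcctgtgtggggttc
Cd3d: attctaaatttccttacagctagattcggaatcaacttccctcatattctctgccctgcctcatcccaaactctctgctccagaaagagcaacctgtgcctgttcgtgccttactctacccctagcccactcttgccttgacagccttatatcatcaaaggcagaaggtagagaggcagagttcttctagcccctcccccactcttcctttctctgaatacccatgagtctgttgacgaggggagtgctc
Cd3g: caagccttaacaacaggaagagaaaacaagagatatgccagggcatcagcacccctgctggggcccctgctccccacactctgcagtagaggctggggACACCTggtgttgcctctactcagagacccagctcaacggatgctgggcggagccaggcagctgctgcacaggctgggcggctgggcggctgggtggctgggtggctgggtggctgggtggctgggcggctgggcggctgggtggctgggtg

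Most lymphocytes were Cd3-positive. With at least 2 UMIs over the 3 Cd3 genes, 48 of 62 cells (77.4%, interval 65.0 to 87.1%) were Cd3-positive, 8 of them in the anterior library, 15 in the posterior library, 9 on lane 1 and 16 on lane 2. A further 13 cells (21.0%, 11.7 to 33.2%) had no Cd3 UMI, with 2, 3, 5 and 3 in the same order of libraries, and 1 cell, the deep anterior barcode above, had a single Cd3 UMI. The rule admits a Cd3-negative cell only where Cd2 and Nkg7 are both detected. With fewer than 15 cells of each kind in a preparation, the planned test between them was not run, and the genes named for this split were chosen after their values were seen. The median depth was 3401 UMIs in Cd3-positive and 3766 UMIs in Cd3-negative cells.

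The Cd3-negative cells carried the receptors and adaptors of NK cells. Ncr1, the NK receptor NKp46, was detected in 0 of 48 Cd3-positive and 11 of 13 Cd3-negative cells. Tyrobp was detected in 1 Cd3-positive cell and in all 13 Cd3-negative cells, and Fcer1g in 8 Cd3-positive and 13 Cd3-negative cells. Klri1, a Klr lectin, was detected in 3 Cd3-positive and 12 Cd3-negative cells, and Klrb1a (NKR-P1A) in 13 and 12. The levels split the same way: Klrb1a stood at 126 CPM in the sum of the Cd3-positive cells (exact 95% Poisson interval 84.4 to 181) and at 1003 CPM in the Cd3-negative cells (766 to 1291), and Fcer1g at 191 CPM and 1705 CPM. At 3 counts, 0 cells with a UMI allows a share of cells with a UMI of up to 6.25% among the Cd3-positive and up to 23.1% among the Cd3-negative cells, which does not limit the share of cells that express the gene. All these intervals cover counting error only.

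Several genes of the T-cell lineage ran the other way, while other genes of T-cell receptor signalling were found in both kinds. Cd8b, the chain of the Cd8 heterodimer that T cells use, was detected in 19 Cd3-positive and 0 Cd3-negative cells, and Bcl11b, a transcription factor of T-cell commitment, in 20 and 0. Trat1, an adaptor that sits with the T-cell receptor, was detected in 20 Cd3-positive and 0 Cd3-negative cells. Lef1 was detected in 18 and 0, Ccr7 in 12 and 0 and the costimulatory receptor Cd28 in 8 and 0. Of these, Lef1 and Ccr7 had 0 UMIs in the 14 Cd3-positive cells with Ccl5 too. Their absence is therefore not particular to the Cd3-negative cells. Outside the T-cell lineage genes, Ctsw, the cathepsin of cytotoxic lymphocytes, was detected in 30 Cd3-positive and 3 Cd3-negative cells. Among genes of T-cell receptor signalling, Lck was detected in 11 Cd3-negative cells at 351 CPM. In the parts of the Cd3-positive cells described below, Lck stood at 257 to 605 CPM. Zap70 stood at 150 CPM (68.8 to 286) in Cd3-negative cells, against 41.3 to 80.6 CPM in those parts. Lat stood at 117 CPM, against 151 to 484 CPM. Cd8a was found in both, in 30 Cd3-positive cells at 673 CPM and 8 Cd3-negative cells at 368 CPM, with Poisson intervals of 571 to 788 and 231 to 557. Killing genes were detected in both kinds at unequal levels. Only Cd3-negative cells had to hold the cytotoxic granule gene Nkg7, so this difference is partly fixed by the rule. Prf1, perforin, was detected in 16 Cd3-positive cells at 104 CPM (66.8 to 155) and 11 Cd3-negative cells at 769 CPM (563 to 1026). Gzmm was detected in 26 Cd3-positive cells at 513 CPM (424 to 614) and 11 Cd3-negative cells at 2140 CPM (1785 to 2545). In the 14 Cd3-positive cells with Ccl5, described below, Gzmm stood at 1472 CPM (1154 to 1850) and Prf1 at 242 CPM (125 to 423).

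**Figure D2:**
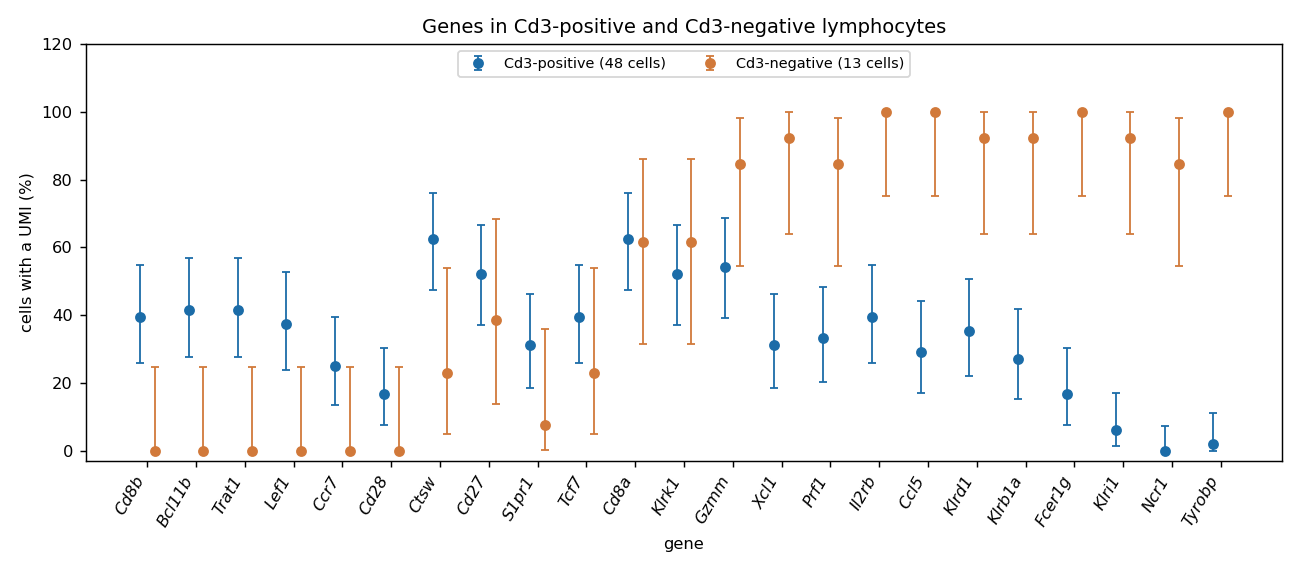
Percentage of cells with at least 1 UMI of each gene, in Cd3-positive lymphocytes (blue, left of each pair) and Cd3-negative lymphocytes (orange, right), with exact 95% binomial intervals. Cd8b, Bcl11b and Trat1 lie at 0 of 13 Cd3-negative cells, and Ncr1 lies at 0 of 48 Cd3-positive cells and 11 of 13 Cd3-negative cells.

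Among Cd3-positive cells, Ccl5 and the pair Lef1 and Ccr7 were detected in separate cells, while Tcf7 was found with both. Ccl5, a chemokine of effector T and NK cells, was detected in 14 of the 48, and Lef1 or Ccr7 in 22, with 0 cells holding Ccl5 beside either of them and 12 holding none of the 3 genes. Tcf7 was detected in 3 of the 14 Ccl5 cells, 13 of the 22 Lef1 or Ccr7 cells and 3 of the 12 others. All 4 libraries held both kinds, with Ccl5 in 2 anterior, 4 posterior, 2 lane 1 and 6 lane 2 cells and the Lef1 or Ccr7 kind in 3, 10, 3 and 6. This split was drawn after the values were seen, so what follows describes these cells and is not a test. In the Cd3-negative cells Ccl5 was detected in all 13.

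The Ccl5 cells carried more RNA of several genes of cytotoxic effectors. Cd8a was detected in 13 of these 14 cells, against 9 of the 22 Lef1 or Ccr7 cells, and Cd8b stood at 645 CPM (441 to 911), against 98.3 CPM (52.3 to 168). Gzmk, a granzyme of memory and transitional effector cells, stood at 1189 CPM (905 to 1534) from 59 UMIs in the Ccl5 cells and had 2 UMIs in the Lef1 or Ccr7 cells. Ccl4 stood at 5584 CPM, against 318 CPM. Cxcr6, a receptor of tissue-dwelling lymphocytes, stood at 242 CPM (125 to 423), against 37.8 CPM (12.3 to 88.2) from 1 cell. Without the cells holding other types' markers, the Lef1 or Ccr7 cells had 144 CPM of Cd8b (76.6 to 246) and 465 of Ccl4. Their Cxcr6 was then 55.3 CPM (17.97 to 129), and its interval overlapped that of the Ccl5 cells. The intervals of Cd8a also overlapped (800 to 1398 in the Ccl5 cells and 633 to 1016). Tigit, an inhibitory receptor, was detected in 7 Ccl5 cells and 3 Lef1 or Ccr7 cells. Other cytotoxic genes went both ways, here without the 7 cells holding other types' markers. Gzmm stood at 1472 CPM in the Ccl5 cells, against 232 CPM, and Ctsw at 1250 CPM, against 708 CPM. Xcl1 stood at 847 CPM (610 to 1145), against 1062 CPM (861 to 1297), and Klrk1 at 222 CPM, against 409 CPM. The intervals of Prf1 overlapped (125 to 423 and 45.5 to 189).

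As a sum, the Lef1 or Ccr7 cells carried some genes of circulating T cells, but the group was not uniform. Without the cells holding other types' markers, 9 of 19 had Ctsw (708 CPM) and 5 had Xcl1 (1062 CPM). S1pr1, the receptor that lets lymphocytes leave tissue for blood or lymph, had 1 UMI in the 14 Ccl5 cells and 38 UMIs in 12 of the 22 Lef1 or Ccr7 cells, or 287 CPM (203 to 394). Klf2, the factor that drives S1pr1, stood at 80.6 CPM (22.0 to 206) in the Ccl5 cells and 1013 CPM (849 to 1200.2) in the Lef1 or Ccr7 cells. Of the 7 cells with other types' markers, 0 were among the 14 Cd3-positive Ccl5 cells and 3 among the 22 Lef1 or Ccr7 cells. Endothelial cells also express S1pr1 and Klf2. Without those 3 cells Klf2 stood at 598 CPM (449 to 780) and S1pr1 at 288 CPM (188 to 422) in the Lef1 or Ccr7 cells. Il7r, the receptor for the survival cytokine IL-7, was detected in 1 Ccl5 cell and 8 Lef1 or Ccr7 cells.

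**Figure D3:**
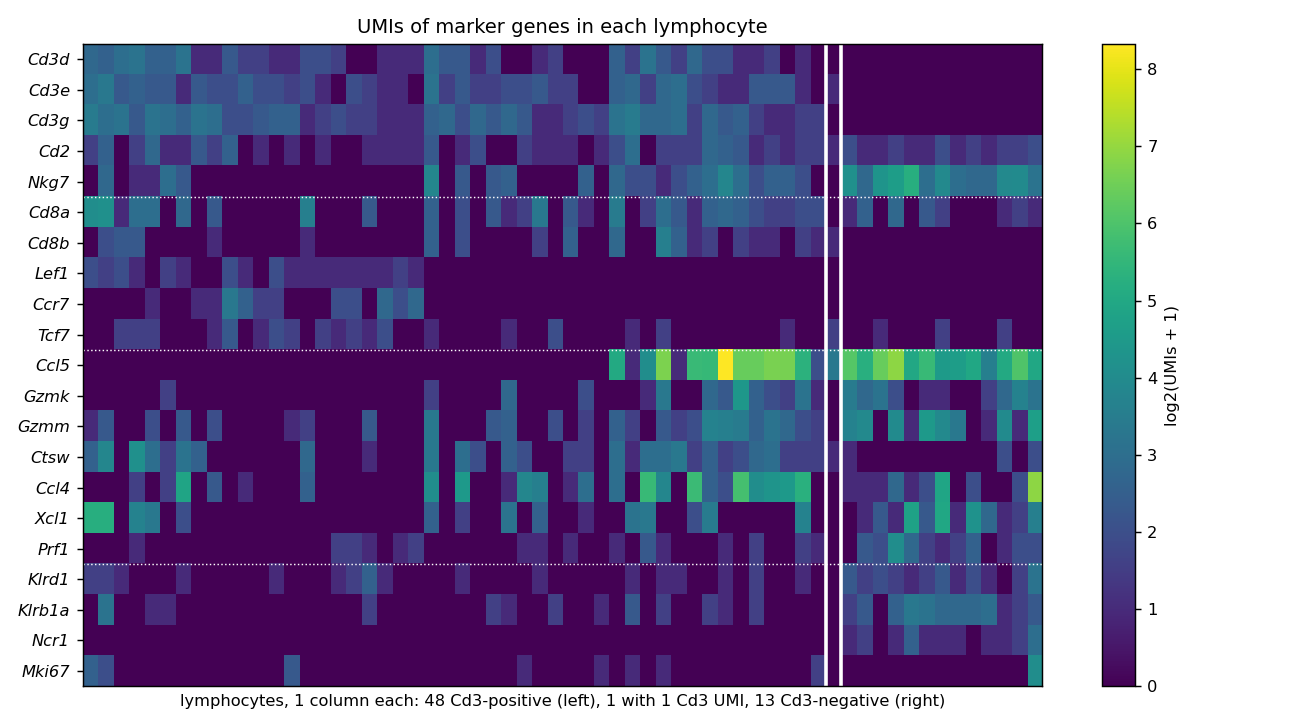
UMIs of 21 marker genes (rows) in each of the 62 lymphocytes (columns), as log2(UMIs + 1). White vertical lines part the 48 Cd3-positive cells, the single cell with 1 Cd3 UMI and the 13 Cd3-negative cells; within the Cd3-positive block, cells with Lef1 or Ccr7 lie left of cells with neither, and cells with Ccl5 lie at the right.

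Cd4 and Foxp3, which mark helper and regulatory T cells, had no UMI. Cd4, the coreceptor of helper T cells that rat macrophages also express, had 0 UMIs in the 62 lymphocytes, which at 3 counts allows up to 9.52 CPM, against 491 UMIs (77.8 CPM) in C1q-positive macrophages. Of the 48 Cd3-positive cells, 18 had neither Cd8a nor Cd8b, which at their median of 4145.5 UMIs does not show that they lack them. Foxp3, the factor of regulatory T cells, had 0 UMIs, as had Gzmb and the alarmin receptor Il1rl1. Il4 had 2 UMIs and Il2 had 1. Gata3, which both helper and innate lymphocytes use, was detected in 6 Cd3-positive and 6 Cd3-negative cells. Trac, Trbc1, Trbc2 and Trdc, the constant genes of the T-cell receptor, were not analysed here.

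Lymphocytes were compared with the other leukocytes of the same glands: 847 C1q-positive macrophages, with at least 5 C1q UMIs, and 43 C1q-negative myeloid cells. Cells of both classes had to hold fewer than 2 of the 5 genes that define lymphocytes. The small class is mixed, with 1078 CPM of Siglech and 905 CPM of Jchain, genes of plasmacytoid dendritic cells, and 61.7 CPM of Cd3g. UMIs were summed per class and preparation and tested with edgeR's quasi-likelihood test, with Benjamini-Hochberg adjustment over all genes. Genes called higher or lower had an adjusted p under 0.05 and differed by 1 or more on the log2 scale. Genes of the rule and of the compared gate were left out, and fold changes run as lymphocytes over the other class.

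Against C1q-positive macrophages, 480 of 13986 genes (3.43%) were higher and 809 (5.78%) lower in lymphocytes, or 9.22% in either direction. Without the 7 cells that held other types' markers the counts were 491 and 1333. DESeq2 called 710 higher and 651 lower, and the median log2 fold change of all genes was -0.33 with edgeR, -0.13 with DESeq2 and -0.83 without the 7 cells. Against C1q-negative myeloid cells, 232 of 13981 genes (1.66%) were higher and 335 (2.4%) lower, or 4.06% in either direction, and 218 and 395 genes without the 7 cells. Leaving out a library lowered that total of 567 to 329 (anterior), 347 (posterior) and 337 (lane 2), so single genes of the second comparison are held less firmly than those of the first. The shares over all genes in each comparison are the background to the counts over lists below.

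Of 29 listed genes of T-cell receptor signalling, 24 could be tested, and 17 were higher and 1 lower than in C1q-positive macrophages (median log2 fold change 5.82, against -0.33 over all genes). Lck, the kinase that starts the signal, had 262 CPM in lymphocytes of the dissected and 437 CPM in those of the whole preparation, against 5.40 and 5.37 CPM in macrophages (log2 fold change 5.69, SE 0.34, adjusted p = 7.84e-08). Lat, the adaptor that gathers the signal, had 171 and 273 CPM, against 0.270 and 1.92 CPM (log2 fold change 7.50, SE 0.75, adjusted p = 1.31e-05). In each of these genes both lymphocyte sums lay above both macrophage sums. Cd8a had 514 and 632 CPM, against 0.810 and 0.384 CPM (log2 fold change 9.51, SE 0.61, adjusted p = 2.82e-07). Cd8b, with 61 UMIs in lymphocytes and 0 in macrophages, was at least 407-fold higher at a floor of 3 counts over the summed macrophages (adjusted p = 7.27e-06). The gene that was lower was Cd4, at least 8.17-fold (adjusted p = 0.000738).

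Against C1q-negative myeloid cells, 11 of the 24 were higher and 1 lower. The median log2 fold change was 5.45 as fitted and 2.40 with genes at 0 UMIs set to their bound. Lck had 1 UMI in the 43 myeloid cells and was 81.0-fold higher in lymphocytes (95% counting interval 14.2 to 3231; adjusted p = 6.49e-05), and Skap1, an adaptor of integrin activation, was at least 16.2-fold higher (adjusted p = 0.00341). Cd8a differed less, at 514 and 632 CPM in lymphocytes and 225 and 70.6 CPM in the myeloid cells (log2 fold change 1.97, SE 0.46, adjusted p = 0.0257), and was not called when the anterior library (adjusted p = 0.0550) or lane 2 (adjusted p = 0.107) was left out. Without the anterior library or without lane 2, 4 of the 24 were higher, and without the posterior library 8. Over all genes 96, 122 and 109 were higher in these settings, in the same order, against 232 with all libraries.

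Ptprc and its partner Ptprcap were both higher in lymphocytes than in macrophages. Ptprc had 535 and 764 CPM in lymphocytes, against 185 and 174 CPM in C1q-positive macrophages (log2 fold change 1.55, SE 0.24, adjusted p = 0.000732). Ptprcap, which is more confined to lymphocytes, had 487 and 554 CPM, against 6.48 and 7.29 CPM (log2 fold change 5.95, SE 0.33, adjusted p = 7.84e-08).

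Of 31 listed NK and cytotoxic genes, 22 could be tested, and 17 were higher and 3 lower in lymphocytes than in C1q-positive macrophages (median log2 fold change 6.28). Ctsw had 165 UMIs in lymphocytes and 0 in macrophages, at least 1102-fold higher (adjusted p = 7.27e-06), a call that DESeq2's Wald test did not make. Gzmm had 391 and 1349 CPM, against 1.89 and 1.15 CPM (log2 fold change 8.66, SE 0.68, adjusted p = 2.98e-06), and Gzmk had 220 and 686 CPM, against 2.43 and 0.384 CPM (log2 fold change 7.63, SE 0.74, adjusted p = 1.75e-05). Both granzymes had their larger value in the whole preparation, a difference between preparations that was not tested. Klrd1 (CD94), the partner chain of NKG2 receptors, had 134 and 257 CPM, against 1.62 and 0 CPM (log2 fold change 7.31, SE 0.69, adjusted p = 1.23e-05). Reads of near-identical copies within the Klr, Ly49 and granzyme B-like families may have been split or dropped in counting, so values of single members of these families are uncertain.

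The 3 lower genes were Tyrobp, Fcer1g and Fcgr3a, which macrophages also use for signalling through Fc and other receptors. Tyrobp had 568 and 1240 CPM in lymphocytes, against 2372 and 2403 CPM in macrophages (log2 fold change -1.73, SE 0.32, adjusted p = 0.00201). Within the lymphocytes the 13 Cd3-negative cells stood at 3394 CPM (2943 to 3894), above the macrophages' 2385 CPM over both preparations, and the Cd3-positive cells at 252 CPM, all from 1 of the 7 cells with other types' markers, without which they had 0 UMIs. Hcst, the adaptor of the activating receptor Klrk1 (NKG2D), was higher instead, at 364 and 608 CPM, against 54.0 and 54.1 CPM (log2 fold change 2.84, SE 0.27, adjusted p = 8.73e-06). Against C1q-negative myeloid cells 7 of the 22 were higher and 2 lower (median 6.20 as fitted, 2.13 with zeros at their bound). Gzmm was at least 63.3-fold higher there (adjusted p = 0.00116) and Gzmk at least 33.2-fold (adjusted p = 0.00372).

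**Figure D4:**
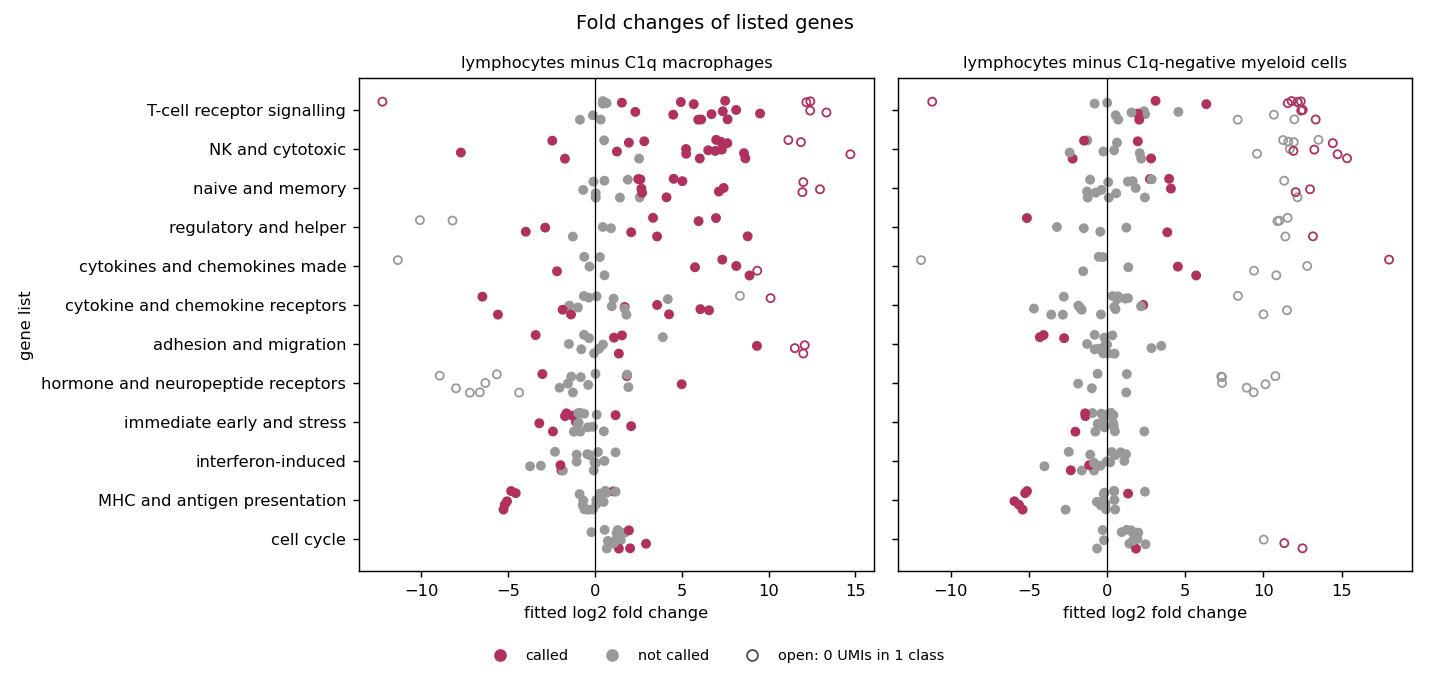
Fitted log2 fold changes (x axis, lymphocytes over C1q-positive macrophages on the left, over C1q-negative myeloid cells on the right) of the tested genes of each list (rows); red points were called, grey points were not, and open points had 0 UMIs in 1 class, where the fitted value is no bound. T-cell receptor and cytotoxic genes lie mostly to the right of 0, and the 5 class II genes called in both comparisons lie to the left of 0.

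Of the 11 chemokine and cytokine genes tested, 5 were higher and 1 lower than in C1q-positive macrophages. Ccl5 gave 1580 UMIs in 28 of the 62 cells, with 3329 CPM in the anterior library, 2804 in the posterior library, 5594 on lane 1 and 9450 on lane 2, and 20.3% of its UMIs came from 1 cell. It was detected in 45.2% of lymphocytes, of median depth 3611.5 UMIs, and in 0.229% of Prl-rich cells, which should lack it and are deeper (median 16711.5 UMIs). By preparation it had 2945 and 8031 CPM, against 37.8 and 9.21 CPM in macrophages (log2 fold change 7.33, SE 0.81, adjusted p = 4.85e-05), and it was at least 406-fold higher than in C1q-negative myeloid cells (adjusted p = 0.000592). Xcl1, which draws cross-presenting dendritic cells, had 803 and 897 CPM, against 0 and 3.45 CPM in macrophages (log2 fold change 8.90, SE 0.54, adjusted p = 2.85e-07).

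The related chemokines Ccl4 and Ccl3 did not follow Ccl5. Ccl4 had 959 and 2947 CPM in lymphocytes, against 2400 and 1493 CPM in C1q-positive macrophages, and the sums overlapped (log2 fold change -0.32, SE 0.49, adjusted p = 0.739). Against C1q-negative myeloid cells, with 8.64 and 149 CPM, Ccl4 was higher (log2 fold change 4.53, SE 0.69, adjusted p = 0.00125). Ccl3 was lower than in macrophages, at 171 and 491 CPM, against 1500 and 925 CPM (log2 fold change -2.19, SE 0.51, adjusted p = 0.0113), but not without the anterior library (adjusted p = 0.169) or with DESeq2 (adjusted p = 0.160). Ifng, the macrophage-activating cytokine, rested on 1 cell: 88.4% of its 43 UMIs came from a lane 2 cell.

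Of 20 genes of naive, memory and tissue-dwelling states, 12 were higher than in C1q-positive macrophages and the others were not called (median log2 fold change 2.64). Ccr7 had 139 and 125 CPM, against 0.810 and 0.384 CPM (log2 fold change 7.41, SE 0.83, adjusted p = 0.000143), and Tcf7 had 150 and 109 CPM, against 6.21 and 2.69 CPM (log2 fold change 4.53, SE 0.46, adjusted p = 1.07e-05). Cd69, the early activation marker that retains lymphocytes in tissue, had 118 and 289 CPM, against 4.05 and 5.37 CPM (log2 fold change 5.03, SE 0.50, adjusted p = 3.34e-05). S1pr1 was higher too, at 214 and 54.6 CPM, against 19.7 and 16.9 CPM (log2 fold change 2.67, SE 0.35, adjusted p = 0.000107). Against C1q-negative myeloid cells 5 were higher, and 2 to 3 when the anterior library, the posterior library or lane 2 was left out. Over all genes 96, 109 and 122 were then higher, against 232 with all libraries.

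Of 21 cytokine and chemokine receptors, 6 were higher and 4 lower than in C1q-positive macrophages, against 3.43% higher and 5.78% lower over all genes. Il2rg, the common chain of the IL-2, IL-7 and IL-15 receptors, had 155 and 179 CPM, against 11.9 and 10.7 CPM (log2 fold change 3.58, SE 0.35, adjusted p = 1.15e-05). Cxcr3, the receptor of interferon-induced chemokines, had 64.3 and 70.2 CPM, against 0.540 and 1.15 CPM (log2 fold change 6.07, SE 0.79, adjusted p = 0.000200). Cx3cr1, the fractalkine receptor of resident macrophages and some effector lymphocytes, had 2 UMIs in all lymphocytes and 2904 in macrophages, a ratio of 0.0138 (counting interval 0.00167 to 0.0499; adjusted p = 5.26e-07). Of 13 tested genes listed for helper and regulatory cells, 6 were higher (Lag3, Tnfrsf18, Rora, Il2ra, Gata3 and Tigit) and 2 lower (Havcr2 and Maf) than in C1q-positive macrophages. Rora was not called without the anterior library (adjusted p = 0.0691) or lane 2 (adjusted p = 0.0642). Tnfrsf18 (GITR), a costimulatory receptor, had 166 and 195 CPM and was at least 14.4-fold higher than in C1q-negative myeloid cells (adjusted p = 0.00372).

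Receptors for the pituitary hormones prolactin and growth hormone, and for dopamine and CRH, were not detected or almost so. The prolactin receptor Prlr had 0 UMIs in the lymphocytes and 1527 in all kept barcodes. The lymphocytes held 314995 UMIs, against 2.70e+08 over all barcodes. With so few UMIs, 0 counts of Prlr do not show a level below the average of all barcodes. In the lymphocytes the growth hormone receptor Ghr had 1 UMI, and the dopamine receptor Drd2 and the CRH receptor Crhr1 had 0. At this depth 0 UMIs allows up to 9.52 CPM over the summed lymphocytes. Of 19 hormone, neurotransmitter and prostaglandin receptors that could be tested, 2 were higher and 1 lower than in C1q-positive macrophages. Over all genes 3.43% were higher and 5.78% lower. Ptger4, a receptor for prostaglandin E2, had 102 and 117 CPM, against 23.8 and 26.5 CPM (log2 fold change 1.83, SE 0.31, adjusted p = 0.00109), and was not called when cells were gated on 1 random part of their UMIs and summed on the rest (adjusted p = 0.307). In the comparison with C1q-negative myeloid cells edgeR called 0 of the 19, as did DESeq2, against 4.06% of all genes with edgeR. At an unadjusted p under 0.05, 3 were higher and 0 lower, a count with no share over all genes beside it.

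Class II RNA was low in lymphocytes. Of 19 tested genes of the MHC and antigen presentation, 1 was higher and 5 lower in each comparison. Over all genes 3.43% were higher and 5.78% lower against macrophages, and 1.66% and 2.4% against the myeloid cells. The 5 lower genes of both comparisons were Cd74, RT1-Ba, RT1-Bb, RT1-Da and RT1-Db1, the class II chains and their chaperone. Against macrophages the higher gene was Tap1, called in 11 of 16 other settings. Against the myeloid cells it was RT1-T24-4, called in 5 of 16. Cd74 had 493 and 296 CPM in lymphocytes, against 10138 and 14836 CPM in C1q-positive macrophages (log2 fold change -5.27, SE 0.40, adjusted p = 6.63e-07) and 17647 and 15410 CPM in C1q-negative myeloid cells (log2 fold change -5.40, SE 0.40, adjusted p = 2.23e-06). Of the 130 Cd74 UMIs, 90 came from the deep anterior barcode with 1 Cd3 UMI, and the posterior library had 0. B2m, the light chain of class I, was at 11038 CPM in lymphocytes, 8528 CPM in C1q-positive macrophages and 7902 CPM in C1q-negative myeloid cells. Of 16 interferon-induced genes, 2, Bst2 and Mx2, were lower in both comparisons and the others were not called. Over all genes 5.78% were lower against macrophages and 2.4% against the myeloid cells. Mx2 was not called against macrophages without the anterior library (adjusted p = 0.0655), lane 2 (adjusted p = 0.0856) or the preparation as a block (adjusted p = 0.0845). Against the myeloid cells Bst2 was not called without the posterior library, lane 1 or lane 2 (adjusted p = 0.25, 0.0626 and 0.171), nor Mx2 without the anterior library, lane 1 or lane 2 (adjusted p = 0.0571, 0.200 and 0.0980). Bst2 had 375 and 226 CPM, against 818 and 1155 CPM in macrophages (log2 fold change -1.99, SE 0.26, adjusted p = 0.000118).

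Of 19 tested immediate early and stress genes, some of which dispersal of tissue can induce, 2 were higher and 6 lower than in C1q-positive macrophages (median log2 fold change -0.95), against 3.43% higher and 5.78% lower over all genes (median -0.33). Without the 7 cells holding other types' markers 2 were higher and 12 lower (median -1.69), in a setting where all genes also leaned lower, with 491 higher and 1333 lower (median -0.83). Fosb had 375 and 374 CPM, against 993 and 1051 CPM (log2 fold change -1.73, SE 0.21, adjusted p = 5.13e-05). Btg1, an antiproliferative gene of resting lymphocytes, was higher at 1414 and 2597 CPM, against 664 and 761 CPM (log2 fold change 1.18, SE 0.28, adjusted p = 0.0127), though not when the anterior library or lane 1 was left out.

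Cell cycle genes differed in how many lymphocytes held them. Pcna, a clamp of DNA replication, was detected in 30 of the 62 cells and Stmn1, a microtubule regulator, in 29. Mki67, the proliferation marker, was detected in 9 cells and Top2a in 5 of these, and 47.1% of the Mki67 UMIs came from 1 Cd3-negative cell on lane 2. Of 16 cell cycle genes 4 were higher than in C1q-positive macrophages, against 3.43% over all genes, and the others were not called. The number was 2 without the anterior or the posterior library and 1 without lane 2. Over all genes 338, 325 and 391 were higher in these settings, against 480 with all libraries. Stmn1 had 718 and 507 CPM, against 156 and 246 CPM (log2 fold change 1.38, SE 0.25, adjusted p = 0.00195), and was not called without the posterior library or lane 2.

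By size of change, the genes highest over C1q-positive macrophages by the naming rule included Ctsw, AC142181.1, Sh2d2a, Cd8b, Cd27, Ly49s6 and Trat1, which were at 0 UMIs in the macrophages and at least 220 to 1102-fold higher in lymphocytes. Sh2d2a, the T-cell adaptor TSAd, was at least 481-fold higher (adjusted p = 6.53e-06) and Cd27, a costimulatory receptor, at least 327-fold (adjusted p = 2.23e-05). DESeq2's Wald test did not call Ctsw (adjusted p = 0.159), AC142181.1 (0.171), Cd27 (0.230) and Trat1 (0.284). The 8 lowest were Fcrl2, Cd68, Ltc4s, Ccl6, Trem2, Clec7a, Clec4a3 and C3, at least 25.9 to 46.4-fold lower, with 0 UMIs in lymphocytes. Over C1q-negative myeloid cells the 8 highest were Ccl5, AC109737.1, Gzmm, Ctsw, Gzmk, Gzmbl2, AABR07027872.1 and AC142181.1, of which DESeq2 did not call Ctsw, Gzmbl2 and AC142181.1. AC109737.1, which the files leave without a name, was detected in 56 of the 62 lymphocytes, with 44 of 48 Cd3-positive and 12 of 13 Cd3-negative cells. It held 282 of its 358 UMIs among all kept barcodes in these 62 cells, at 809 and 1021 CPM in lymphocytes and 0 UMIs in the myeloid cells, at least 72.5-fold higher (adjusted p = 5.96e-06).

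The level of some genes varied widely between libraries. Xcl1 stood at 140 CPM in the anterior library, 1047 in the posterior library, 1738 on lane 1 and 407 on lane 2, and the intervals of the lanes, which come from 1 suspension, did not overlap. Gzmm stood at 698, 278, 1653 and 1172 CPM in the same order, lowest in the posterior library. There 10 of the 18 cells were of the Lef1 or Ccr7 kind, and a link to the level was not tested. Of the 136585 posterior UMIs, 1 cell gave 21090 and another 20760. Cd8a stood at 439, 542, 869 and 493 CPM and Ctsw at 439, 483, 403 and 716 CPM. The deep anterior barcode, with 24946 of the 50162 anterior UMIs, held 9 Ccl5, 1 Ctsw, 0 Xcl1, 0 Gzmm and 0 Cd8a UMIs. It lowers the anterior values of these genes. A library held 2 to 5 Cd3-negative cells, and the sums were not tested between libraries.

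**Figure D5:**
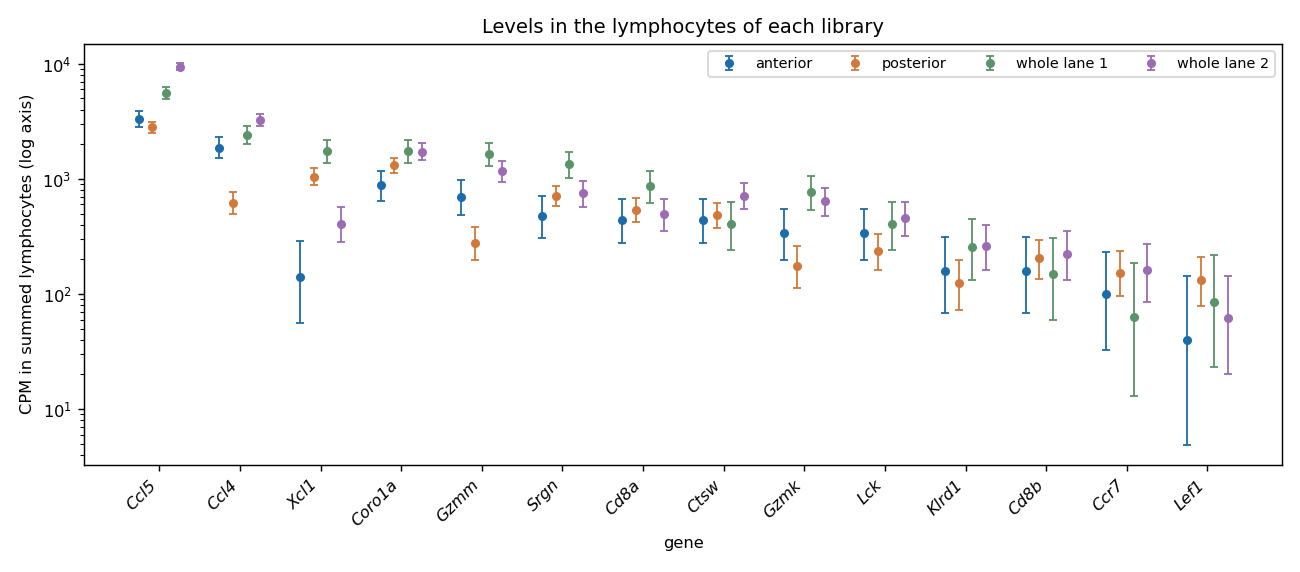
Levels of 14 genes in the summed lymphocytes of each library (CPM, log axis), with exact 95% Poisson intervals. Ccl5 lies between 2804 and 9450 CPM and Xcl1 between 140 and 1738 CPM, while Cd8a and Ctsw stay between 403 and 869 CPM.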

How the data were processed

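Messenger RNA of single pituitary cells was measured in 4 libraries. The authors deposited whole UMI counts per gene and barcode, not normalized, made with Cell Ranger 3.1 per the submitters' processing notes. The genome build, the annotation and any equalizing of reads between libraries are not given in the sources used here. The barcode list, deposited as text with a suffix per library, is of unit other. Library totals ran from 6.20e+07 to 7.28e+07 UMIs.

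Lymphocytes and comparison classes were gated on counts, with the members and gene lists chosen with earlier results of these data known. UMIs were summed for 8 classes in 2 preparations (16 sums, 7 residual degrees of freedom, 13997 genes) and tested with edgeR 4.0.16 (quasi-likelihood, TMM, filterByExpr, terms for class and preparation, Benjamini-Hochberg). All classes share 1 estimate of spread. CPM is the count scaled to 1000000 UMIs of the summed cells. A fold against 0 UMIs was set at a floor of 3 counts over the summed class. Intervals are exact at 95% (Clopper-Pearson or Poisson). Doublets were scored with Scrublet in scanpy 1.11.5 (expected rate 0.06) and kept. The fit was tested on simulated counts. Alternatives included DESeq2 1.42.0. Named genes were the 8 largest called changes per direction with at least 50 CPM in both preparations of the higher class, the 5 highest of each list, and a fixed set of lymphocyte genes; others are said to be chosen after their values were seen. A few listed genes are not reported here, though counts over lists include them.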

Additional observations from a re-analysis of the deposited data

How the results depend on the processing

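Against C1q-positive macrophages the 1289 called genes became 621 with leukocyte classes only in the fit and 920 to 1164 with a library left out, and the other settings gave 894 to 1824, the highest without the 7 cells holding other types' markers. Against C1q-negative myeloid cells the 567 called genes became 932 without a filter on low counts, 319 with leukocyte classes only, 261 when cells were gated on 1 random part of their UMIs and summed on the rest, and 329 to 488 with a library left out (329 without anterior, 347 without posterior, 488 without lane 1, 337 without lane 2). Without the preparation as a replicate block the counts were 1283 and 552. Settings added after seeing the data gave 1369 and 551 genes without members of 20000 or more UMIs, and 1197 and 502 with Cd3-positive members only.

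Of the genes followed through the settings, 49 of 76 in the first and 26 of 56 in the second comparison kept direction and call in every setting that gave a value; DESeq2's Wald test lost 10 and 8 of them, and gating on separate UMIs 9 and 20. Ccl4 alone changed sign against macrophages, with log2 fold changes of -0.62 to 0.40 when a library was left out (positive without the posterior library), and it was called in no setting. The cause of these changes was not tested.

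As a share of low-hormone barcodes lymphocytes were 0.724% (anterior), 0.772% (posterior), 0.771% (lane 1), 1.21% (lane 2) and 0.976% (whole glands). Thinned to 1000 UMIs per cell, the share of lymphocytes with a UMI was 43.5% for Cd8a (61.3% unthinned), 3.23% for Ncr1 (17.7%), 40.3% for Gzmm (59.7%) and 30.6% for Xcl1 (43.5%). The alternatives for the contrast of Cd3-positive and Cd3-negative cells were not run, since neither preparation held 15 cells of each. With 62 cells of median depth 3611.5 UMIs, a gene at 0 UMIs may be present at up to 9.52 CPM.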

Other observations

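Of 2 lymphocyte transcripts that the files leave unnamed, AC142181.1 gave 119 UMIs in the lymphocytes and 0 in C1q-positive macrophages and in C1q-negative myeloid cells. AC109737.1 was detected at 1073 CPM (943 to 1215) in Cd3-positive cells and 585 CPM (408 to 814) in Cd3-negative cells, and at 0.317 CPM in C1q-positive macrophages.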
